A study of Mus musculus with 55 samples.

Results

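A comparison of 16 of the 55 RNA-seq libraries of the series set both forms of diabetes side by side in the healing mouse heart, 7 days after myocardial infarction: 8 labelled type 1 diabetic and 8 labelled type 2 diabetic. They were chosen by their titles. The mice were C57BL/6J, a coronary artery had been tied off for good, and the tissue was the infarct of the left ventricle. Library names read hi STZ for type 1 and lo STZ HFFD for type 2, which the labels do not spell out, so the forms of diabetes cannot be told apart from whatever else those treatments differ in. Another 8 non-diabetic libraries of the same day, also from infarcts, entered the same fit and give the level beside both groups. At day 28, 20 diabetic libraries (10 type 1 and 10 type 2) serve for the comparison between days. The series set out to compare immune and metabolic gene expression between both diabetic states after infarction. The labels used here give no age, sex or blood glucose. Whether each replicate is its own mouse is not in the labels, so a p-value here reflects how far libraries of a group spread, and that spread may be technical.

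A week after a coronary artery is closed, dead muscle has been cleared by neutrophils and macrophages, and fibroblasts are laying down the matrix of the scar. Type I interferons, released when cells sense nucleic acid from dying tissue or viruses, act on a set of antiviral genes, and together with interferon gamma they raise the genes that present antigen to T cells. Macrophages also take up large amounts of membrane lipid at this stage, and they adjust cholesterol synthesis, uptake and export to it. In bulk tissue, fewer cells of a type and less RNA per cell cannot be told apart.

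Libraries held 31322847 to 51158036 counts in type 1 tissue, 30812809 to 48187379 in type 2 tissue and 10756242 to 46812053 in non-diabetic tissue. Levels are given as CPM, counts as a share of the scaled library size, as the lowest, median and highest of the 8 libraries of a group. The markers chosen for cardiomyocytes, fibroblasts, endothelium and macrophages had counts in all 24 libraries of the day, while Adipoq was at 0 in 13. The mean log2 CPM of 20 cardiomyocyte genes was 8.50 ± 1.2 in type 1 libraries and 9.19 ± 0.74 in type 2 libraries (SD, n = 8 each), with ranges of 6.15 to 9.64 and 7.63 to 9.85 that overlapped, and edgeR called 0 of the 20, with 5 at an unadjusted p under 0.05 and 1 lower in DESeq2. Type 1 replicate 4 was unlike the others. Its cardiomyocyte mean was the lowest, and it had the adipocyte hormone gene Adipoq at 98.0 CPM against 0 to 4.36 CPM in type 2 libraries, and the antibody gene Ighm at 3719 CPM against at most 254 CPM in type 2 libraries. Results are therefore also given without it. Non-diabetic replicate 5 had the lowest limma-voom quality weight of the 24 libraries (0.185, against 0.274 for type 1 replicate 4). Its cardiomyocyte mean, 8.35, was the lowest of the non-diabetic group. It was the highest non-diabetic library for F13a1, Cd163, Mal, Crct1 and Ptx3 and the lowest for Cd74 and H2-Eb1, and no fit left it out alone.

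Among the genes lower in type 1 than in type 2 infarcts were 19 of 30 interferon-stimulated genes, 8 of 12 class I and 4 of 10 class II antigen presentation genes and 7 of 15 NK cell and cytotoxic genes. Among those higher were 4 of 11 resident macrophage genes and 7 of 21 genes of sterol and fatty acid synthesis. By the quasi-likelihood test of edgeR, with p-values adjusted by Benjamini-Hochberg, 275 genes were higher in type 1 tissue (1.51 percent of 18165 tested) and 217 were lower (1.19 percent) at an adjusted p of at most 0.05, which is what "called" means below. The median log2 difference over all genes tested was 0.00. Every type 1 library lay above every type 2 library for 56 genes, and below for 61. Without type 1 replicate 4, 311 genes were higher (1.71 percent) and 266 were lower (1.46 percent), and 403 of the 492 calls were made again in the same direction.

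**Figure D1:**
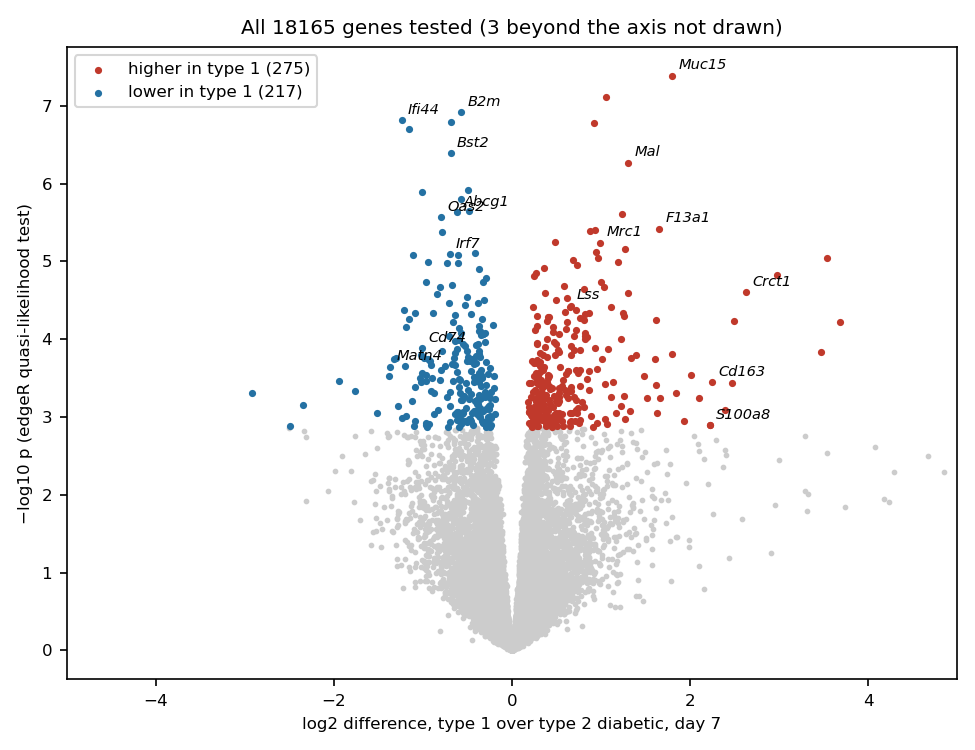
Each point is 1 of 18165 genes tested: the log2 difference, type 1 over type 2, on the x axis and −log10 of the edgeR p on the y axis. The 275 genes called higher in type 1 tissue are red, the 217 called lower are blue, and 3 genes with a log2 difference beyond 5 in size are not drawn; of the labelled genes, Muc15 and Mal have the smallest p on the higher side, and B2m, Ifi44 and Bst2 on the lower side.

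How many genes were called depended on single libraries. Leaving out 1 library at a time gave between 160 calls (without type 1 replicate 6) and 978 calls (without type 1 replicate 3). It also moved the count past 1.5 times for type 1 replicates 7 (255 calls) and 8 (213) and for type 2 replicates 2 (206), 4 (258), 6 (195) and 8 (280). The library names begin with a number whose meaning the labels do not give, and several libraries share it: the 8 type 1 libraries carry 6 such numbers and the 8 type 2 libraries carry 4. When libraries of a group with the same number were summed, edgeR called 0 genes, with 1983 genes at an unadjusted p under 0.05, and all 492 genes called before kept their sign; DESeq2 on the separate libraries called 1026 genes. If that number marks a shared source, the adjusted p-values given here are too small.

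Interferon-stimulated genes were lower in type 1 infarcts. Of 30 tested, 19 were lower in type 1 tissue and 0 higher, against 1.19 percent of all genes lower, and the median log2 difference of the 30 was −0.44. Irf7, the transcription factor that amplifies the type I interferon response, stood at 65.8, 92.7 and 116 CPM in type 1 infarcts (lowest, median and highest), at 129, 135 and 204 CPM in type 2 infarcts, and at 40.8, 60.4 and 66.2 CPM in non-diabetic infarcts. The diabetic groups did not overlap, and by median type 1 infarcts lay between type 2 and non-diabetic ones. The log2 difference was −0.70 (SE 0.125, adjusted p = 0.00539, edgeR), and −0.65 without type 1 replicate 4. Ifi44, an interferon-induced protein of the cell interior, had 10.9, 15.8 and 22.3 CPM in type 1 infarcts, against 30.8, 37.6 and 47.2 CPM in type 2 and 8.48, 13.9 and 20.9 CPM in non-diabetic infarcts. All type 1 libraries lay below all type 2 libraries and overlapped the non-diabetic ones, and at −1.24 (SE 0.172, adjusted p = 0.000497, edgeR) it had the largest difference of the list.

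The other leading members did other parts of the antiviral programme. Bst2 (tetherin), which holds budding virus at the cell surface, had 69.7, 88.0 and 107 CPM in type 1 infarcts, against 127, 138 and 162 CPM in type 2 and 56.9, 80.1 and 95.4 CPM in non-diabetic infarcts (log2 difference −0.69, SE 0.102, adjusted p = 0.00092, edgeR). Oas2, which makes the messenger that switches on RNA degradation by RNase L, had 31.2, 44.0 and 58.7 CPM in type 1, against 65.9, 73.0 and 100 CPM in type 2 infarcts (−0.79, SE 0.132, adjusted p = 0.00303, edgeR). Neither gene's diabetic groups overlapped. Xaf1 completes the 5 of 30 members of the list whose type 1 libraries all lay below their type 2 libraries, against 61 of 18165 genes tested. None of the 5 lost its call when any single library was left out. Oas1g, of the same enzyme family as Oas2, was lower as well (log2 difference −1.16, SE 0.164, adjusted p = 0.000511, edgeR), although its reads cannot be separated with certainty from those of its close paralogs.

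Members of the signal chain were lower as well. Irf9, a transcription factor of the type I interferon response, had 45.0, 56.8 and 66.1 CPM in type 1 infarcts, against 64.7, 70.9 and 76.1 CPM in type 2 infarcts, and the ranges overlapped (log2 difference −0.37, adjusted p = 0.0135, edgeR). Stat2, another factor of that response, was at −0.36 and missed the threshold (adjusted p = 0.106). The RNA sensors Ddx58 (RIG-I, −0.39) and Dhx58 (−0.35), the ribosome-binding Ifit1 (−0.62) and Ifit3 (−0.60), the ubiquitin-like Isg15 (−0.69) and Usp18 (−0.66), which removes it, were called lower too. Among the 11 members not called, Mx1, a GTPase that blocks influenza-type viruses, was at 0.00 (adjusted p = 0.999) and the others lay between −0.21 and −0.60, with Oas3 at −0.60 (adjusted p = 0.0655) and Rsad2 at −0.28 (adjusted p = 0.32). The mean log2 CPM of the list ran from 4.80 to 5.46 in type 1, from 5.44 to 5.94 in type 2 and from 4.46 to 5.06 in non-diabetic libraries. The lowest type 1 value was that of replicate 6, and without this library 11 of the 30 were called lower (median −0.39). Among the calls lost there were Ddx58, Dhx58, Ifit1, Ifit3 and Isg15 (adjusted p = 0.0831, 0.097, 0.0933, 0.0678 and 0.0776). Leaving out any 1 library left 11 to 22 of the 30 called lower, 11 also without type 1 replicate 8 or type 2 replicate 2, 12 without type 1 replicate 7 or type 2 replicate 6, and 17 without type 1 replicate 4.

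The promoters of 4 genes are shown because their genes carry this difference and hold the letters of the interferon-stimulated response element, a site through which interferons act on genes. The windows, from RefSeq on GRCm38.p6, run from 250 bases before to 50 bases after the start of the gene, 5′ to 3′ on the strand of the gene, and capitals mark GAAA, any 2 bases and GAAA again, on either strand, overlapping matches joined. They are Bst2 at chr8:71537423-71537722 on the minus strand, Ifit3 at chr19:34583279-34583578 on the plus strand, Isg15 at chr4:156200769-156201068 on the minus strand and B2m at chr2:122147437-122147736 on the plus strand.
Bst2: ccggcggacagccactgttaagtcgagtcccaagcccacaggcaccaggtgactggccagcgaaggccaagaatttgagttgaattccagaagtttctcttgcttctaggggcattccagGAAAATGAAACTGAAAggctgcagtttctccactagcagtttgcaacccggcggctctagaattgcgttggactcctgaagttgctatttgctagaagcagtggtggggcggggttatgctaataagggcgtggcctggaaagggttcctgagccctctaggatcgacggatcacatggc
Ifit3: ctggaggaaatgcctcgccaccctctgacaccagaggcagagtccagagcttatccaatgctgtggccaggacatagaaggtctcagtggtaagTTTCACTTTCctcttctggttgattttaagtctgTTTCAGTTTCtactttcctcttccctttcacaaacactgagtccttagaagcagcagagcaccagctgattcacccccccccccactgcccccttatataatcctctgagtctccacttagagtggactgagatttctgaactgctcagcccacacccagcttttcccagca
Isg15: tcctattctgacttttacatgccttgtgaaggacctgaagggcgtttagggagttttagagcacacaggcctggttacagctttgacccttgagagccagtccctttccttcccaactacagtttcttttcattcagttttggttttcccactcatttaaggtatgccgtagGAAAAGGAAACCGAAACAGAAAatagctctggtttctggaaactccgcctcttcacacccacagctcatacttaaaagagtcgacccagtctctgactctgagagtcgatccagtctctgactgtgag
B2m: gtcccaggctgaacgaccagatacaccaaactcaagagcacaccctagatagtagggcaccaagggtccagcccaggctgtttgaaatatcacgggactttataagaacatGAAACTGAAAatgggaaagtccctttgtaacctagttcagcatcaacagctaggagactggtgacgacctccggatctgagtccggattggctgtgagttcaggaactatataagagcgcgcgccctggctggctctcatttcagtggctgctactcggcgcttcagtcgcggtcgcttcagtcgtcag

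These windows hold 2, 2, 3 and 1 matches in the order printed. Of the 21 interferon-stimulated genes with a promoter in the table, 11 held the letters (52.4 percent), against 3.99 percent of all 27025 promoters of the table. Of those 11 genes, 6 were called lower in type 1 tissue, and 7 of the 10 without a match were. Over all genes tested with a promoter in the table, the letters stood in 28 of 157 called lower (17.8 percent), in 2 of 194 called higher (1.03 percent) and in 3.85 percent of all 12400. A match is a description of letters and not of binding.

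**Figure D2:**
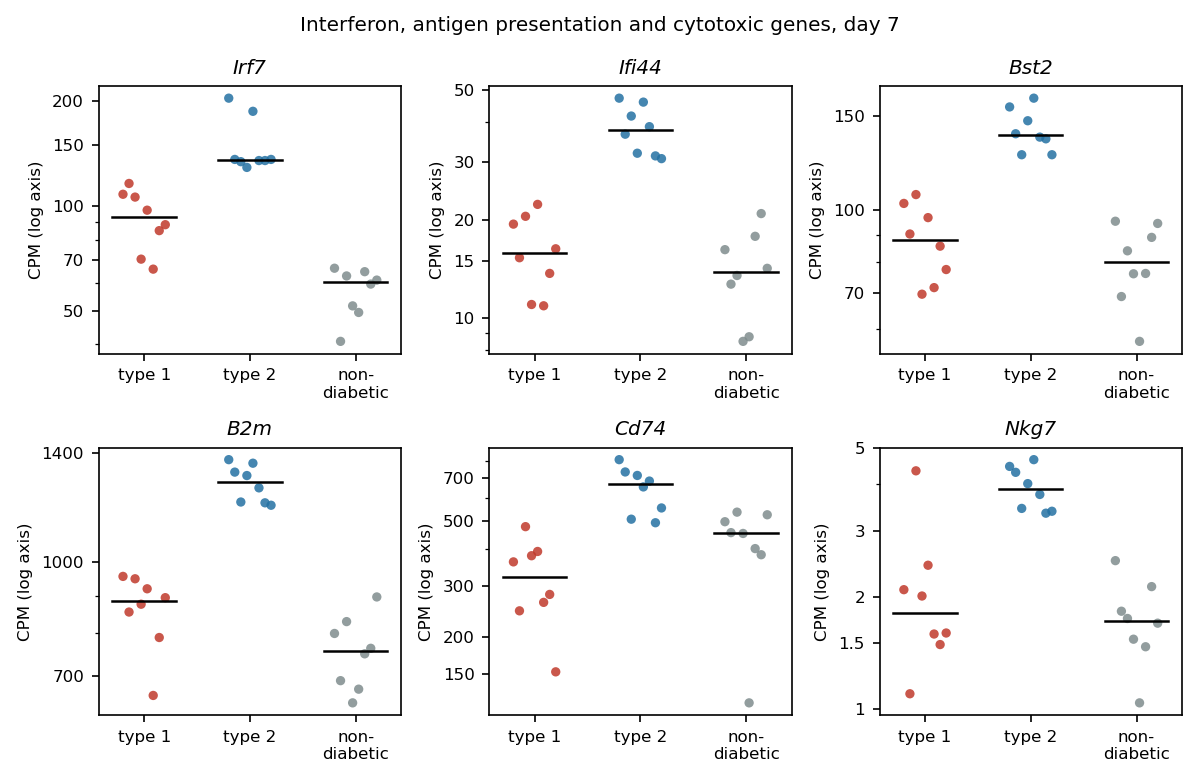
CPM on a log axis for 6 genes in type 1, type 2 and non-diabetic infarcts of day 7; each point is 1 library (8 a group) and the line is the group median. For Irf7, Ifi44, Bst2, B2m and Cd74 all type 1 points lie below all type 2 points; for Nkg7 type 1 replicate 3, at 4.35 CPM, lies among the type 2 libraries.

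Class I antigen presentation genes show peptides from inside the cell to cytotoxic T cells. They were lower in type 1 infarcts in 8 of 12 cases, against 1.19 percent of all genes, and higher in 0. Their median log2 difference was −0.40. B2m, the light chain of every class I molecule, had 660, 885 and 955 CPM in type 1 infarcts, against 1191, 1281 and 1372 CPM in type 2 infarcts and 645, 758 and 896 CPM in non-diabetic infarcts. The diabetic groups were well apart, with a log2 difference of −0.57 (SE 0.0778, adjusted p = 0.000497, edgeR). The heavy chains H2-K1 (−0.50) and H2-D1 (−0.46) were called lower, as were the nonclassical H2-Q7 (−1.01, adjusted p = 0.00209), H2-Q6 (−0.94), H2-T22 (−0.37) and H2-T23 (−0.38), whose near-identical sequences make the split of reads among them uncertain. Tapbp, which loads peptide onto class I, was at −0.27 (adjusted p = 0.044), and the peptide transporter subunit Tap2 at −0.11 (adjusted p = 0.642). Type 1 replicate 4 was the highest library of its group for H2-K1 at 881 CPM and for H2-D1 at 1086 CPM, both inside the type 2 range, and without it 10 of 12 were called (median −0.50). Without type 1 replicate 6, 4 of the 12 were called, and H2-K1, H2-D1, H2-T23 and Tapbp missed the threshold (adjusted p = 0.0518, 0.0659, 0.0913 and 0.107); 5 were called without type 1 replicate 8 or type 2 replicate 2.

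Class II genes, which dendritic cells, macrophages and B cells use to present antigen from outside, moved in part. Cd74, the invariant chain that escorts class II molecules, had 152, 321 and 478 CPM in type 1 infarcts, against 493, 670 and 811 CPM in type 2 and 119, 454 and 536 CPM in non-diabetic infarcts. The diabetic groups did not overlap, and type 1 libraries had the lowest median of the 3 groups (log2 difference −1.01, SE 0.224, adjusted p = 0.0182, edgeR). H2-Eb1 (−1.01), H2-Ab1 (−0.97) and H2-Aa (−0.88), the chains of the class II molecules, completed the 4 of 10 called lower, with 0 higher. Over all genes 1.19 percent were called lower. Ciita, the factor that switches class II genes on, was at −0.67 (adjusted p = 0.0725), and H2-DMa and H2-DMb1, which exchange the peptide, at −0.37 and −0.40 (adjusted p = 0.105 and 0.108). Without type 1 replicate 6, 1 of the 10 was called, and H2-Eb1, H2-Ab1 and H2-Aa were not (adjusted p = 0.0592, 0.0624 and 0.0745); without type 1 replicate 8 or type 2 replicate 2 it was also 1, without type 2 replicate 6 it was 2, and without type 1 replicate 4, 6 were called. The median of the 10 was −0.38, and −0.67 without type 1 replicate 4. Differences were positive in 3 of the 10, and in 1 without that library. With the cardiomyocyte mean as a covariate, 1 was called at a median of −0.61, with Cd74 at −0.91 (adjusted p = 0.0336) and H2-Eb1, H2-Ab1 and H2-Aa at −0.86, −0.83 and −0.78 (adjusted p = 0.053, 0.0545 and 0.0644).

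Of 21 genes that interferon gamma raises most, edgeR called 1 lower, with 9 at an unadjusted p under 0.05, while DESeq2 called 4 lower and limma-voom 15. In 20 of the 21 the difference was not above 0. The 1 called was Cxcl9, a chemokine that draws in activated T cells, with 5.36, 8.71 and 14.6 CPM in type 1 infarcts, against 9.85, 16.0 and 34.3 CPM in type 2 infarcts, ranges that overlapped. Its log2 difference of −0.95 (SE 0.264) lay at the threshold (adjusted p = 0.05) and missed it without any 1 of 13 libraries, with an adjusted p of 0.111 without type 1 replicate 6. The guanylate-binding proteins, which attack membranes of intracellular pathogens, lay between −0.99 (Gbp6, adjusted p = 0.0639) and 0.11 (Gbp4), and Irf1 was at −0.15 (adjusted p = 0.663). The median of the list was −0.30, and without type 1 replicate 4 it was −0.44 with 4 members called lower. Among 11 genes of the Ifi200 family of DNA sensors and Aim2, 3 were lower, against 1.19 percent of all genes. They were Mndal (−0.61, adjusted p = 0.00544), Ifi203 (−0.67, adjusted p = 0.00793) and Ifi213 (−0.80, adjusted p = 0.00796), all in edgeR. Mndal and Ifi203 had diabetic groups that did not overlap. Reads of these neighbours, close in sequence, are uncertain in their split, and Aim2 was at 0.08 (adjusted p = 0.835).

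NK cell and cytotoxic genes were present at low levels, and 7 of the 15 tested were lower in type 1 infarcts, against 1.19 percent of all genes. None of the 15 was called higher, and their median log2 difference was −0.83. With the cardiomyocyte mean as a covariate 4 were called lower at a median of −0.75, and limma-voom called 13 lower. Ccl5, a chemokine made by NK cells and T cells, had 3.75, 5.2 and 10.5 CPM in type 1, against 8.36, 10.4 and 12.4 CPM in type 2 and 2.88, 5.35 and 6.56 CPM in non-diabetic infarcts (log2 difference −0.88, SE 0.18, adjusted p = 0.0115, edgeR). Nkg7, a cytotoxic granule protein, had 1.10, 1.80 and 4.35 CPM in type 1, against 3.35, 3.89 and 4.66 CPM in type 2 infarcts (−0.92, SE 0.209, adjusted p = 0.0208, edgeR). For both genes 7 of the 8 type 1 libraries lay below all type 2 libraries, and replicate 3 was the exception. The transcription factor Eomes, which NK cells and memory T cells need, was at −1.15 (SE 0.239, adjusted p = 0.0122, edgeR) from medians of 0.595 CPM in type 1 and 1.48 CPM in type 2 infarcts. Il2rb, the beta chain of the interleukin-2 and interleukin-15 receptors, and the NK receptors Ncr1, Klre1 and Klra7 made up the rest, Klra7 with uncertain reads because of its paralogs. Killing molecules did not all follow: Prf1 (perforin) was at −0.87 (adjusted p = 0.0559), Gzma at −0.24 (adjusted p = 0.608) and Gzmb at −0.05 (adjusted p = 0.952). Klrk1, the activating receptor NKG2D, was at −0.55 (SE 0.215, adjusted p = 0.157). Without type 1 replicate 6, 2 of the 15 were called, and Nkg7, Il2rb, Klre1 and Klra7 missed the threshold (adjusted p = 0.0532, 0.0922, 0.0798 and 0.0793). The count was 3 without any 1 of type 1 replicates 2, 7 and 8 and type 2 replicates 1, 2, 4 and 5, and 4 without type 2 replicate 6. Ncr1 had an adjusted p of 0.106 without type 2 replicate 2.

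Of 21 T cell genes, 3 had positive and the others negative differences, and edgeR called 0, with 11 at an unadjusted p under 0.05, 4 lower in DESeq2 and 13 lower in limma-voom. Cd3e, part of the T cell receptor complex, had 0.523, 0.914 and 2.87 CPM in type 1, against 1.55, 2.33 and 2.62 CPM in type 2 and 0.436, 0.903 and 1.40 CPM in non-diabetic infarcts (−0.98, SE 0.293, adjusted p = 0.0663, edgeR). Type 1 replicate 3 lay above every type 2 library, and the other 7 lay below. The median of the list was −0.50, and at the other end were Ctla4 (0.74, adjusted p = 0.357) and Foxp3 (0.21, adjusted p = 0.771), genes of regulatory T cells, which were at −0.07 and −0.04 without type 1 replicate 4. Of 12 dendritic cell genes, edgeR called 2 lower and 1 higher, against 1.19 and 1.51 percent of all genes. Lower were Itgax (CD11c, an integrin of dendritic cells and macrophages, at −0.83, adjusted p = 0.0413) and Clec9a (−0.47, adjusted p = 0.0454), a marker of cross-presenting dendritic cells. Clec10a was higher (1.63, adjusted p = 0.0417). The Clec10a call was lost without any 1 of 9 libraries. Type 1 replicate 4 was at 109 CPM where the group median was 11.9, and without it the value was 0.62 (adjusted p = 0.0873). Without the same library Itgax kept its call (adjusted p = 0.0487) and Clec9a did not (adjusted p = 0.0635). Itgax lost it without any 1 of 10 libraries, with an adjusted p of 0.0903 without type 1 replicate 8. Clec9a lost it without any 1 of 13 libraries, with an adjusted p of 0.0947 without type 1 replicate 7.

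The summed CPM of the 15 NK and cytotoxic genes was 21.4 to 47.7 in type 1 and 39.4 to 60.5 in type 2 libraries, and that of the 21 T cell genes was 50.5 to 97.4 in type 1 and 80.5 to 107 in type 2 libraries. NK genes and interferon-stimulated genes were lower in the same group, and the part of one in the other was not tested. General macrophage genes did not move with them. Of 15 such genes, among them Adgre1 (F4/80, −0.20), Cd68 (0.00) and Csf1r (0.11), edgeR and DESeq2 called 0, with 1 at an unadjusted p under 0.05 in edgeR and 1 higher in limma-voom, the median was 0.00, and their summed CPM was 5852 to 7676 in type 1 and 6225 to 7868 in type 2 libraries.

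**Figure D3:**
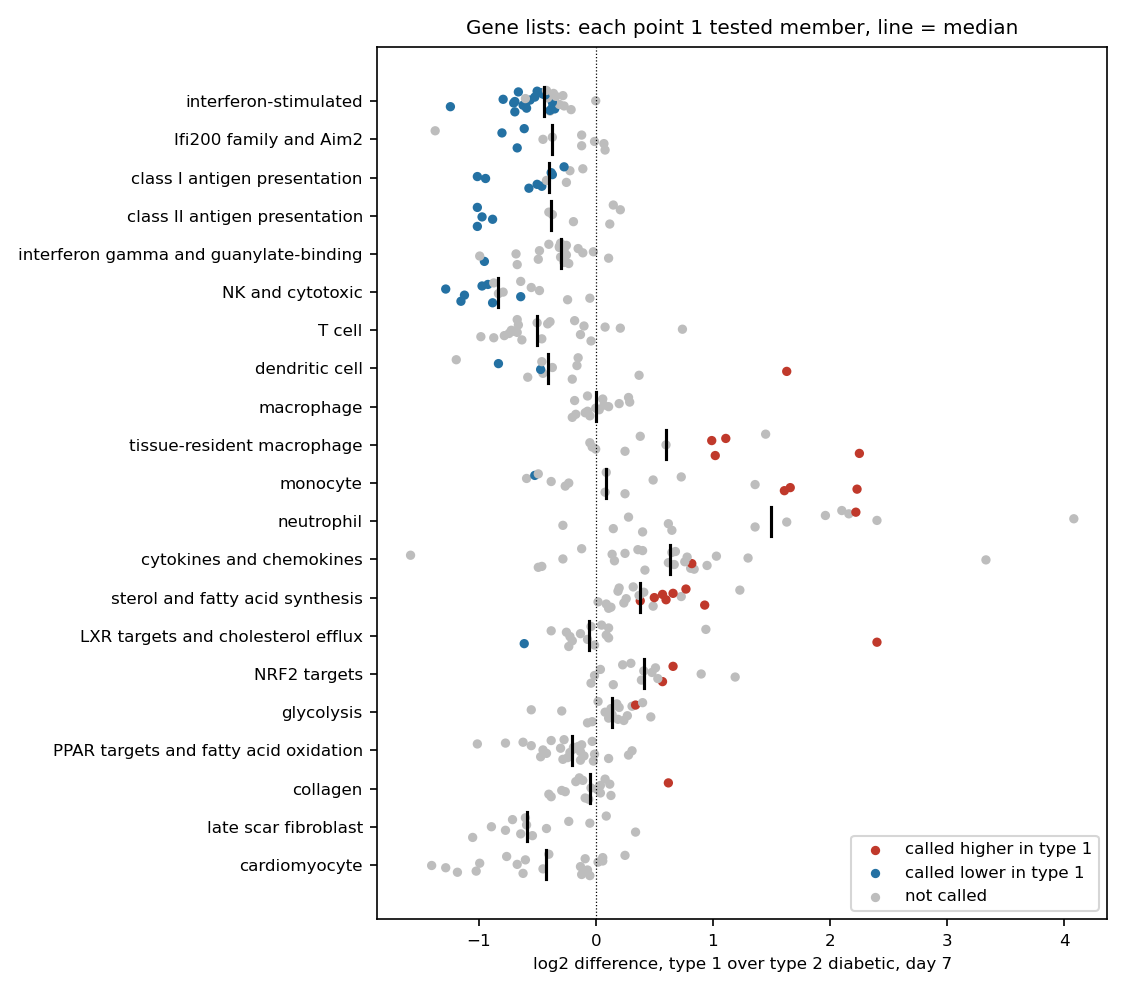
The log2 difference, type 1 over type 2, on the x axis for every tested member of 21 gene lists; red points were called higher in type 1 tissue, blue points lower, grey points neither, and the black line is the median of the list. Interferon-stimulated genes (median −0.44) and NK genes (−0.83) lie to the left, sterol synthesis (0.38) and tissue-resident macrophage genes (0.60) to the right.

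Within the macrophage genes, some known from resident, scavenging cells were higher in type 1 infarcts. Of 11 tissue-resident macrophage genes, 4 were called higher, against 1.51 percent of all genes, and 0 lower. Mrc1 (CD206), the mannose receptor, had 177, 344 and 398 CPM in type 1 infarcts, against 114, 155 and 200 CPM in type 2 and 89.6, 139 and 259 CPM in non-diabetic infarcts. All type 1 libraries but replicate 3 lay above all type 2 libraries, and the log2 difference was 0.99 (SE 0.174, adjusted p = 0.00472, edgeR). Cd163, the receptor that clears haemoglobin bound to haptoglobin, had 9.12, 36.9 and 124 CPM in type 1, against 2.70, 9.66 and 17.8 CPM in type 2 and 5.46, 7.95 and 56.7 CPM in non-diabetic infarcts. Its type 1 libraries were widely spread and replicate 4 was the highest; the difference was 2.25 (SE 0.547, adjusted p = 0.0275, edgeR), 1.87 without that library (adjusted p = 0.0461), and missed the threshold without type 2 replicate 6 (adjusted p = 0.0627).

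Pf4, a chemokine of platelets that cardiac macrophages also make, had 78.7, 132 and 185 CPM in type 1, against 33.7, 58.0 and 97.6 CPM in type 2 infarcts (1.11, SE 0.224, adjusted p = 0.0109, edgeR). Cbr2, a carbonyl reductase, was at 1.02 (adjusted p = 0.0203) at 0.72 without type 1 replicate 4 (adjusted p = 0.0233), and just missed the threshold without type 2 replicate 6 (adjusted p = 0.0503). Folate receptor Folr2 (0.25), Timd4 (0.38), which binds dying cells, and Lyve1 (0.60), the hyaluronan receptor, were not called, nor was Vsig4 (1.45, adjusted p = 0.0519), a complement receptor. Gas6, Igf1 and Mgl2 had differences not above 0 and were not called either. Differences were thus positive in 8 of the 11, against 9224 of 18165 over all genes. The median of the list was 0.60, and 0.39 without type 1 replicate 4. The mean log2 CPM of cardiomyocyte genes was 8.50 in type 1 and 9.19 in type 2 libraries. With that mean as a covariate the median of the list was 0.38 and 3 members were called, while Cd163, at 1.74, missed the threshold (adjusted p = 0.0509, edgeR). Leaving out any 1 library left 2 to 5 of the 11 called, 2 of them without type 2 replicate 6.

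F13a1, which encodes the A chain of coagulation factor XIII, made by monocytes and macrophages, had 104, 253 and 347 CPM in type 1 infarcts, against 44.2, 77.1 and 99.9 CPM in type 2 and 41.6, 68.9 and 169 CPM in non-diabetic infarcts. The diabetic groups did not overlap, and the log2 difference of 1.66 (SE 0.282, adjusted p = 0.00382, edgeR) kept its call in all 16 fits that left out 1 library. Ccr1, a receptor for inflammatory chemokines, had 35.8, 67.0 and 97.0 CPM in type 1, against 8.99, 24 and 40.5 CPM in type 2 infarcts (1.40, SE 0.315, adjusted p = 0.0196, edgeR). Of 15 genes of the monocyte list, which holds F13a1 too, 3 were called higher, against 1.51 percent of all genes, and 1 lower, against 1.19 percent. The others called higher were Chil3 (2.23) and Cd177 (1.61), a gene better known from neutrophils. Spn (CD43), a surface mucin of the patrolling kind, was lower (−0.52, adjusted p = 0.0107). Cd177 lost its call without any 1 of 7 libraries, and was at 1.01 with the cardiomyocyte mean as a covariate (adjusted p = 0.0739, edgeR). Chil3 and Cd177 missed the threshold without type 1 replicate 4 (adjusted p = 0.0943 and 0.0514), their highest library, and F13a1 was the gene of the list still called higher. The count was also 1 without any 1 of type 1 replicates 6 and 7 and type 2 replicates 2, 4, 6 and 8. The monocyte genes Ly6c2 (−0.38) and Ccr2 (0.08) were not called (adjusted p = 0.306 and 0.85). Msr1, a scavenger receptor for modified lipoproteins, was at 0.66 (adjusted p = 0.0464, edgeR), a call lost without any 1 of 10 libraries, with an adjusted p of 0.103 without type 1 replicate 6. Spp1 (osteopontin), which macrophages of the infarct make in large amounts, was at 0.29 (SE 0.211, adjusted p = 0.47).

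**Figure D4:**
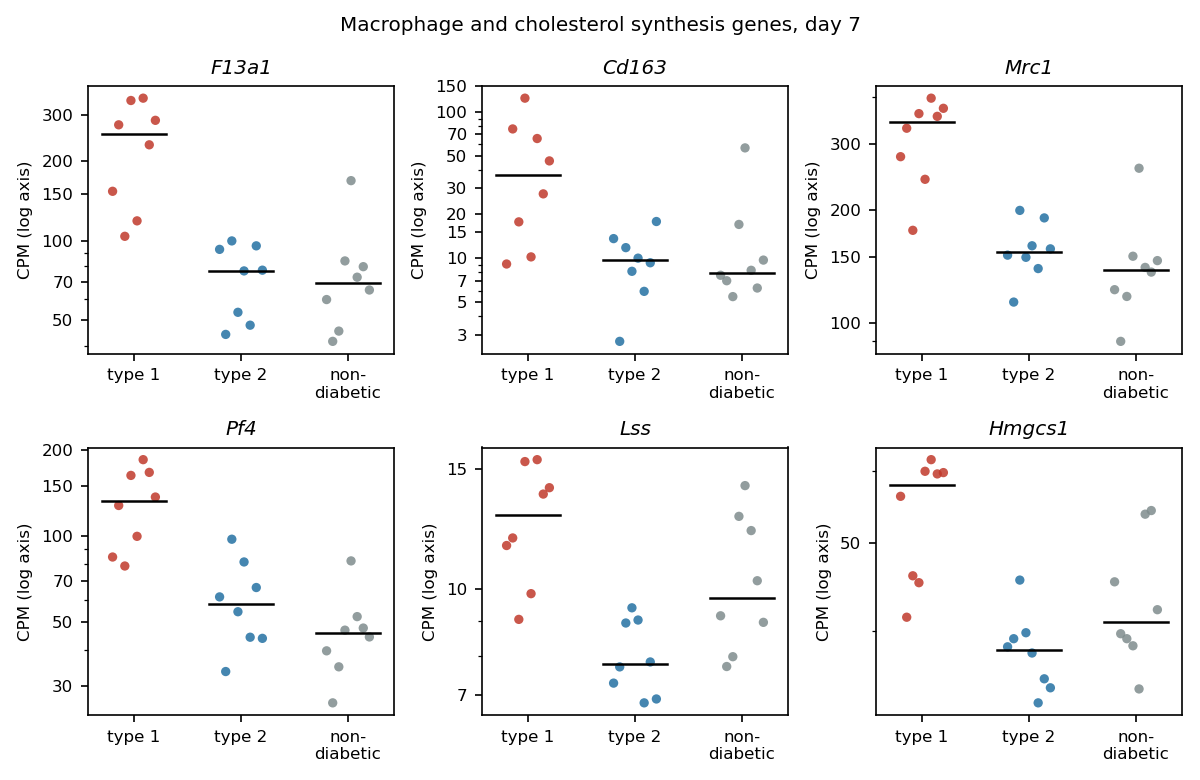
CPM on a log axis for 4 macrophage genes and 2 cholesterol synthesis genes in type 1, type 2 and non-diabetic infarcts of day 7; each point is 1 library (8 a group) and the line is the group median. All type 1 points lie above all type 2 points for F13a1, and the diabetic groups overlap for Cd163, Mrc1, Pf4, Lss and Hmgcs1.

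Of 14 neutrophil genes 1 was called higher, and of 24 cytokine and chemokine genes 1, against 1.51 percent of all genes. Differences were positive in 13 of the 14 and in 19 of the 24, against 9224 of 18165 over all genes. S100a8, a calcium-binding protein abundant in neutrophils, had 6.09, 17.3 and 131 CPM in type 1, against 2.79, 6.43 and 14.8 CPM in type 2 and 1.34, 3.96 and 20.5 CPM in non-diabetic infarcts. Its difference of 2.22 (SE 0.612, adjusted p = 0.0485, edgeR) was the only neutrophil call and was 1.48 without type 1 replicate 4, the highest library (adjusted p = 0.122); the call was lost without any 1 of 11 libraries, and 4 and 6 of the 14 were called without type 1 replicates 1 and 3. S100a9, its partner, was at 2.10 (adjusted p = 0.0687). The median of the 14 was 1.5 with all libraries and 0.76 without that one. With the cardiomyocyte mean as a covariate it was 0.56 with 0 called, 0.40 also without type 1 replicate 4, and S100a8 was at 1.10 (adjusted p = 0.226). DESeq2 called 5 of the 14 higher and limma-voom 7. The cytokine called was Ccl8, a monocyte attractant, with 34.2, 48.1 and 92.1 CPM in type 1, against 22.2, 30.9 and 37.9 CPM in type 2 and 10.2, 16.1 and 22.2 CPM in non-diabetic infarcts (0.82, SE 0.176, adjusted p = 0.0146, edgeR). Ccl2 (0.84, adjusted p = 0.114) and Il1b (0.65, adjusted p = 0.387) were not called by edgeR, while limma-voom called Ccl2 higher (1.15, adjusted p = 0.00244). Ptx3, a soluble pattern receptor induced by inflammatory signals, was higher at 1.22 (SE 0.265, adjusted p = 0.0158, edgeR), with 17.0, 33.9 and 60.4 CPM in type 1, against 10.9, 15.7 and 19.7 CPM in type 2 infarcts.

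Part of the sterol pathway was higher in type 1 infarcts. Of 21 genes of sterol and fatty acid synthesis, 7 were called higher, against 1.51 percent of all genes, 14 were not called and 0 were lower. All 21 differences were positive, against 9224 of 18165 over all genes, and the median of the 21 was 0.38. Lss, which closes squalene epoxide into the first sterol, had 9.04, 12.8 and 15.5 CPM in type 1 infarcts, against 6.82, 7.76 and 9.40 CPM in type 2 and 7.71, 9.74 and 14.2 CPM in non-diabetic infarcts (log2 difference 0.66, SE 0.133, adjusted p = 0.0108, edgeR). The diabetic groups overlapped, with 7 of the 8 type 1 libraries above all type 2 libraries, and type 2 infarcts had the lowest median of the 3 groups. Hmgcs1, which makes HMG-CoA, had 41.4, 58.0 and 61.8 CPM in type 1, against 33.3, 38.1 and 45.5 CPM in type 2 infarcts (0.50, SE 0.099, adjusted p = 0.00991, edgeR). For this gene, 6 of the 8 type 1 libraries lay above all type 2 libraries.

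Other called members of the route were Fdps (0.60), which builds farnesyl units, and Fdft1 (0.38) and Sqle (0.77), which make and oxidise squalene. Fdft1 had an adjusted p of 0.0831 without type 1 replicate 6. Sterol genes not called included Idi1 (0.73, adjusted p = 0.0576), Insig1 (0.37, adjusted p = 0.0536), Cyp51 (0.49), Mvd (0.41), Srebf2 (0.20), Mvk (0.19) and Dhcr7 (0.09). The fatty acid enzymes Fasn (0.02), Acaca (0.11) and Acly (0.13) were not called either. Between 5 and 10 members were called when any 1 library was left out, 8 of them without type 1 replicate 4, and 5 with the cardiomyocyte mean as a covariate.

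On the export side, Abcg1, which moves cholesterol from macrophages to high-density lipoprotein, was lower, with 44.2, 61.2 and 81.8 CPM in type 1 infarcts, against 81.9, 89.1 and 106 CPM in type 2 and 54.9, 63.3 and 77.2 CPM in non-diabetic infarcts. The diabetic groups did not overlap (−0.61, SE 0.101, adjusted p = 0.003, edgeR). Of 16 genes of the LXR route (nuclear receptors that respond to excess sterol), Abcg1 was the 1 called lower and Apoc1 the 1 called higher. Over all genes 1.19 percent were lower and 1.51 percent higher. Abca1, the partner of Abcg1, was at −0.23 (adjusted p = 0.244, edgeR) and Apoe at −0.20 (adjusted p = 0.305, edgeR). Apoc1 was called higher (2.40, adjusted p = 0.0412) with 12.9 CPM in type 1 replicate 4 and a group median of 0.815, and was at 0.94 without that library (adjusted p = 0.186). The Apoc1 call was lost without any 1 of 9 libraries.

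Few genes of fuel use were called. Over all genes tested, 1.51 percent were called higher in type 1 tissue and 1.19 percent lower. Of 26 PPAR target and fatty acid oxidation genes edgeR and DESeq2 called 0, with 4 at an unadjusted p under 0.05 in edgeR and 2 lower in limma-voom (median −0.21). Pdk4, a brake on glucose oxidation, had 78.1, 141 and 409 CPM in type 1, against 110, 225 and 498 CPM in type 2 and 56.4, 112 and 182 CPM in non-diabetic infarcts (−0.55, SE 0.343, adjusted p = 0.394, edgeR). Angptl4, an inhibitor of lipoprotein lipase, was at −0.10 (SE 0.237, adjusted p = 0.859), and Slc2a4, the insulin-dependent glucose transporter, at −0.75 (SE 0.342, adjusted p = 0.223), both with overlapping groups. Among 18 citrate cycle, 23 nuclear respiratory chain, 13 mitochondrially encoded and 7 ketone body genes edgeR and DESeq2 called 0, with 0, 2, 1 and 0 at an unadjusted p under 0.05 in edgeR, and limma-voom called 2 respiratory chain genes lower. Their medians lay between −0.11 and −0.42. With the cardiomyocyte mean as a covariate these medians lay between −0.07 and 0.10. In the same fit the median of the PPAR list was −0.02 and Slc2a4 was at −0.26 (adjusted p = 0.43, edgeR). Of 19 glycolysis genes Pkm, pyruvate kinase of muscle and macrophages, was called higher (0.34, SE 0.0833, adjusted p = 0.0296), and of 18 genes of insulin signalling and FoxO targets Sesn3, a stress-induced regulator of mTOR signalling, lower (−0.32, SE 0.0854, adjusted p = 0.0417). The Pkm call was lost without any 1 of 7 libraries and the Sesn3 call without any 1 of 11. Both were lost without type 1 replicate 6 (adjusted p = 0.0772 and 0.09).

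Of 15 NRF2 targets, genes of the antioxidant response, 2 were higher, against 1.51 percent of all genes, and 0 lower (median 0.41). They were Srxn1, which repairs oxidised peroxiredoxins (0.66, SE 0.146, adjusted p = 0.0176), and Gclc, the catalytic subunit for glutathione synthesis (0.57, SE 0.139, adjusted p = 0.0268), both in edgeR. The antioxidant response element TGACNNNGC stood on either strand in 6 of 13 promoters of this list in the RefSeq table (46.2 percent), against 14 percent of all. Of those 6 genes 1, Srxn1, was called higher, and Gclc was not matched to a promoter. Over all genes tested with a promoter, the letters stood in 21.6 percent of those called higher and in 16.8 percent of all. Gclc lost its call without any 1 of 6 libraries, with an adjusted p of 0.0678 without type 1 replicate 6. Slc7a11, the cystine carrier, was at 0.51 (adjusted p = 0.43). Tfrc, the transferrin receptor for iron uptake, had 22.5, 37.8 and 50.2 CPM in type 1, against 14.4, 20.5 and 26.4 CPM in type 2 infarcts, and was the only one of 11 iron genes called (0.81, SE 0.155, adjusted p = 0.00822, edgeR). Egr2, an early response gene that macrophages also use, was higher at 0.87 (adjusted p = 0.0311), and at 1.00 without type 1 replicate 4, its lowest type 1 library. The Egr2 call was lost without any 1 of 8 libraries, with an adjusted p of 0.0776 without type 1 replicate 6. P4ha2, a collagen prolyl hydroxylase raised by hypoxia, was lower at −0.24 (adjusted p = 0.0496). That call was lost without any 1 of 14 libraries, with an adjusted p of 0.112 without type 2 replicate 6.

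Few scar matrix genes were called, where 1.51 percent of all genes tested were called higher in type 1 tissue and 1.19 percent lower. Of 18 collagens, Col5a3, a minor chain of type V collagen, was called higher, with 130, 174 and 233 CPM in type 1, against 90.2, 117 and 123 CPM in type 2 and 126, 147 and 238 CPM in non-diabetic infarcts. The diabetic groups did not overlap, and type 2 infarcts lay lowest (0.62, SE 0.13, adjusted p = 0.0124, edgeR). Col1a1, the main scar collagen, was at −0.26 (SE 0.151, adjusted p = 0.354). Of 24 genes of elastic fibres and crosslinking, Loxl4 (0.56, adjusted p = 0.0287) and Tgm2 (0.60, adjusted p = 0.0309), a lysyl oxidase and a transglutaminase that crosslink matrix, were higher, and elastin (Eln) was at −0.80 (SE 0.302, adjusted p = 0.146), with 328, 588 and 838 CPM in type 1, 451, 1025 and 1976 CPM in type 2 and 1042, 2329 and 4259 CPM in non-diabetic infarcts. Limma-voom called Eln lower (−0.90, adjusted p = 0.0198). Without type 1 replicate 4, the lowest type 1 library for Tgm2 at 448 CPM, Tgm2 was at 0.70 (adjusted p = 0.00242, edgeR). Loxl4 lost its call without any 1 of 6 libraries, among them type 1 replicate 6 (adjusted p = 0.0759). Tgm2 lost it without any 1 of 8 libraries, among them type 2 replicate 2 (adjusted p = 0.0705). Comp, a cartilage matrix protein of the late scar, was at −0.89 (SE 0.263, adjusted p = 0.0632), and edgeR called 0 of 13 late scar genes, with 5 at an unadjusted p under 0.05, 2 lower in DESeq2 and 7 lower in limma-voom (median −0.59). Myh11 and Mylk, contractile genes of smooth muscle, were lower by −0.35 each (adjusted p = 0.0253 and 0.04). Myh11 lost its call without any 1 of 4 libraries and Mylk without any 1 of 10. Neither was called without type 1 replicate 8 (adjusted p = 0.0609 and 0.0843). Myh6, the adult heart muscle myosin, had 61.4, 1625 and 2660 CPM in type 1, against 533, 4241 and 6327 CPM in type 2 infarcts, and was not called by edgeR (−1.40, SE 0.571, adjusted p = 0.175). DESeq2 (−1.41, adjusted p = 0.0426) and limma-voom (−1.78, adjusted p = 0.0245) called it lower. So did edgeR with the cardiomyocyte mean, which includes Myh6, as a covariate (−0.74, adjusted p = 0.000633).

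The largest differences included genes outside these lists. Crct1, a gene of the cornified layer of epithelia, had 3.40, 8.30 and 16.2 CPM in type 1, against 0.666, 1.45 and 2.03 CPM in type 2 and 0.366, 1.26 and 11.5 CPM in non-diabetic infarcts, with diabetic groups that did not overlap (2.64, SE 0.512, adjusted p = 0.00872, edgeR). Muc15, a membrane mucin, had 2.19, 8.05 and 11.2 CPM in type 1, against 1.89, 2.23 and 2.85 CPM in type 2 infarcts (1.80, SE 0.234, adjusted p = 0.000497, edgeR). Its lowest type 1 library was replicate 4, and the other 7 lay above all type 2 libraries. Mal, a protein of membrane rafts, had 54.4, 81.9 and 125 CPM in type 1, against 29, 33.1 and 43.0 CPM in type 2 infarcts (1.30, SE 0.196, adjusted p = 0.00108, edgeR). Serpinb9b (1.27), a serpin of the family that blocks granzyme B, and Nrip3 (1.23) followed, as did Ifi27l2b (1.25), which by its name is of an interferon-inducible family but was higher in type 1 infarcts. Type 1 and type 2 libraries did not overlap for Mal or Serpinb9b. Serpinb9b and Ifi27l2b have near relatives in the mouse genome, so their reads are uncertain.

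On the lower side stood Matn4 (−1.36, SE 0.317, adjusted p = 0.0225), Col2a1 (−1.09, SE 0.269, adjusted p = 0.0294) and Scube3 (−1.11, SE 0.200, adjusted p = 0.00539), of which Matn4 and Col2a1 are known from cartilage matrix. Matn4 had 2.67, 6.57 and 14.0 CPM in type 1, against 9.11, 18.6 and 31 CPM in type 2 and 10.8, 31.8 and 46.8 CPM in non-diabetic infarcts. Matn4 (adjusted p = 0.0572) and Col2a1 (adjusted p = 0.0739) were not called without type 1 replicate 6. The Matn4 call was lost without any 1 of 3 libraries and the Col2a1 call without any 1 of 6. Gdf3, a TGF-beta family ligand, was lower too, with 2.74, 4.72 and 9.73 CPM in type 1, against 7.56, 9.49 and 19.3 CPM in type 2 infarcts (−1.01, SE 0.229, adjusted p = 0.0196, edgeR). The antisense transcript Plxna4os1 (−0.99) is uncertain, since the strand setting of the counting is not given in the sources used here, and it had an adjusted p of 0.0532 without type 1 replicate 6.

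At day 28 the same groups were compared in 10 type 1 and 10 type 2 libraries, where 224 genes were higher (1.19 percent of 18901 tested) and 383 lower (2.03 percent). Each day has a count table of its own, with 48105347 to 92869315 counts a diabetic library at day 28 and 6.5 to 22.3 percent of them mitochondrial, against 2.61 to 7.34 percent in the diabetic libraries of day 7, so day and table cannot be told apart. Of the 474 genes called at day 7 that were also tested at day 28, 364 had the same sign, 93 were called in the same direction and 4 in the opposite one. Interferon-stimulated genes were lower again, 29 of 30, with a median of −0.75, among them Irf7 (−1.23), Oas2 (−1.14) and Ifi44 (−1.12). Class I genes were lower in 11 of 12 and the interferon gamma list in 17 of 21. B2m was at −0.72 (adjusted p = 7.67e-05, edgeR), while Cd74 was at −0.49 (adjusted p = 0.224) and the median of the class II genes was −0.47. Muc15 was at 1.98 (adjusted p = 2.79e-05), near its day 7 value, and Abcg1 at −0.50 (adjusted p = 0.0054).

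The macrophage and sterol genes were not called at day 28 in the direction of day 7. Cd163 (−0.18), Mrc1 (−0.16), Pf4 (0.05) and F13a1 (−0.49) had an adjusted p of 0.81, 0.728, 0.927 and 0.22, Cbr2 was lower (−0.80, adjusted p = 0.0165), as was Ccl8 (−1.14, adjusted p = 0.0271), and the median of the 21 sterol and fatty acid synthesis genes was −0.02. The difference between days was tested in a fit of all 55 libraries: day 7 minus day 28, 87 genes were higher (0.426 percent of 20421 tested) and 52 lower (0.255 percent), in all 139 genes, and 47 without type 1 replicate 4. The difference was 2.13 for F13a1 (SE 0.353, adjusted p = 0.00106), 1.79 for Cbr2 (SE 0.304, adjusted p = 0.00148), 1.94 for Ccl8 (SE 0.373, adjusted p = 0.00651) and 1.14 for Mrc1 (SE 0.247, adjusted p = 0.016), all in edgeR and all still called without that library (adjusted p = 0.00337, 0.00469, 0.0137 and 0.035). Cd163, Pf4 and Folr2 were called with it, and not without it (adjusted p = 0.0773, 0.0815 and 0.0571), so 5 of the 11 resident macrophage genes differed between days with all libraries. Eln differed the other way, at −1.54 (SE 0.354, adjusted p = 0.0297), being higher in type 1 tissue at day 28 (0.72, adjusted p = 0.0298). Of the 30 interferon-stimulated genes 1 was called between days, Zbp1, a nucleic acid sensor (0.92, adjusted p = 0.0498, and 0.083 without type 1 replicate 4). For the leading interferon and antigen presentation genes the difference was not called, at 0.52 for Irf7 (SE 0.213, adjusted p = 0.226), −0.13 for Ifi44 (SE 0.253), 0.13 for B2m (SE 0.134) and −0.54 for Cd74 (SE 0.318, adjusted p = 0.432). For Lss it was 0.62 (SE 0.15, adjusted p = 0.038, and 0.0685 without type 1 replicate 4).

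**Figure D5:**
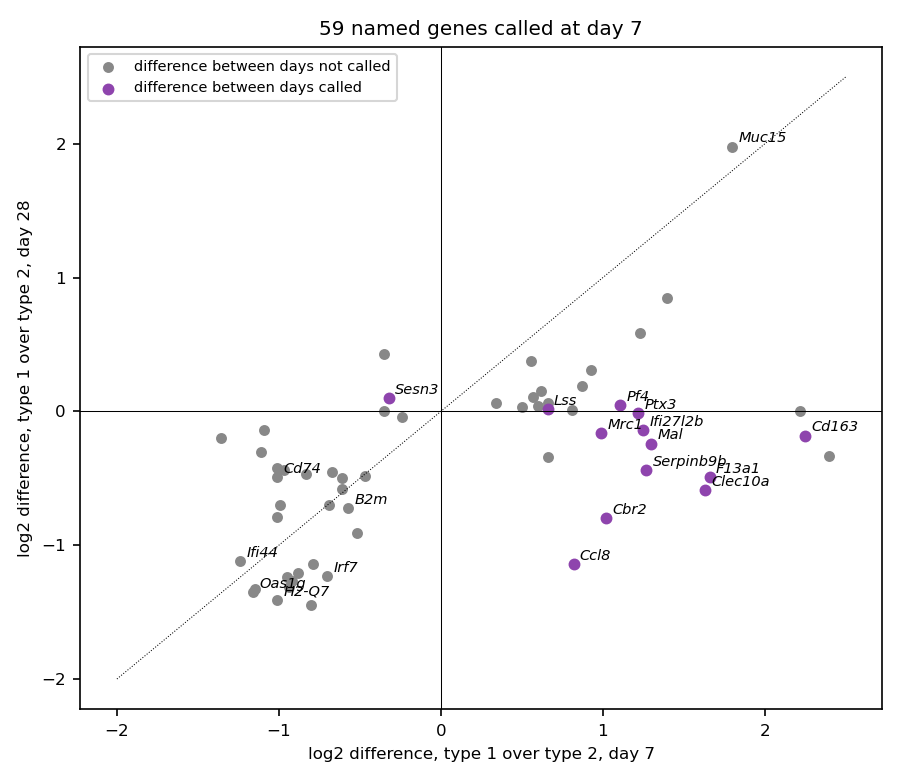
The log2 difference, type 1 over type 2, at day 7 on the x axis and at day 28 on the y axis for the 59 named genes called at day 7 and tested on both days; the dotted line marks equal values. Purple marks the 13 genes whose difference between days was called; F13a1, Cbr2, Ccl8 and Mrc1 lie right of 0 and below 0 on the y axis, while Irf7, Ifi44 and B2m lie below 0 on both axes.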

How the data were processed

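RNA from infarcted left ventricle was made into stranded mRNA libraries, per the labels' protocols. The authors deposited raw read counts per gene, 1 table a day, and their processing notes name genome build mm39 and DESeq2, per the submitters' processing notes; which aligner, counter and strand setting made them is not given in the sources used here. Of the deposited counts from 1 to 49, 76.4 percent were even at day 7, so a count may not be an independent fragment. Symbols were matched for 51948 of 56941 gene IDs, which held 99.34 percent of the counts. No replicates agreed within sampling noise.

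Counts of all 24 libraries of day 7 were fitted in edgeR 4.0.16 (R 4.3.3) with TMM scaling, filterByExpr (minimum count 10, minimum total 15) and the quasi-likelihood test of type 1 minus type 2, with Benjamini-Hochberg adjustment over 18165 genes. log2 CPM values for library means used a prior count of 2. The 31 libraries of day 28 were fitted alike, and the difference between days in all 55. Single values without replicates have no interval here; with 8 libraries a group, precision is that of the spread between libraries. The procedure was tested on simulated data. The gene lists, the members and the tests were chosen with earlier results of these data known. Named genes are the 10 largest differences in each direction (called also without type 1 replicate 4, mean log2 CPM at least 1), up to 3 called members of each list by p, and a preset group; further list members are examples chosen with their values seen. Alternatives were DESeq2 1.42.0, limma-voom 3.58.1, another scaling, no filter, diabetic libraries alone, a cardiomyocyte covariate, summing libraries that share a first number, a replicate block and leaving out each library. Motifs were searched in RefSeq promoters of GRCm38.p6, and no other coordinates are given because that build differs from mm39. A sterol response motif, TCACNCCAC, was searched as well. It stood in 1 of 13 promoters of the sterol and fatty acid synthesis list (7.69 percent), against 1.44 percent of all.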

Additional observations from a re-analysis of the deposited data

Results flagged for a closer look

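In 15 of 190 groups of 8 values 1 library lay far from the other 7 by Dixon's criterion, where chance gives about 1 in 20. Type 1 replicate 4 accounted for 9 of them. On the log2 CPM scale it was low for Muc15 at 1.16 (others 2.64 to 3.50), Ifi27l2b at 0.14 (others 1.44 to 2.55), Tgm2 at 8.81 (others 9.65 to 10.34) and Egr2 at 3.20 (others 4.30 to 5.25). It was high for Clec10a at 6.77 (others 3.09 to 4.04), Apoc1 at 3.69 (others −0.83 to 0.65) and Ighm at 11.86 (others 3.98 to 7.24), for the mean of the B cell and plasma cell genes at 6.14 (others 0.91 to 3.20) and for that of the mast cell genes at 3.65 (others −0.51 to 1.28). Type 1 replicate 3 was high for Cd3e at 1.55 (others −0.80 to 0.26). Type 2 replicate 2 was low for Col5a3 at 6.5 (others 6.81 to 6.94) and for Angptl4 at 6.19 (others 6.92 to 7.47). Type 2 replicate 4 was high for the B cell and plasma cell mean at 3.27 (others 1.77 to 2.43), type 2 replicate 1 was high for the endothelial mean at 7.12 (others 6.78 to 6.92), and type 2 replicate 3 was low for the Schwann cell mean at 1.34 (others 1.62 to 1.83).

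For 14 named genes the type 1 against type 2 difference itself differed between days by the quasi-likelihood test of edgeR, with Benjamini-Hochberg adjusted p, given here as day 7 minus day 28 on the log2 scale. Among monocyte and macrophage genes it was 2.40 for Cd163 (adjusted p = 0.0345), 2.13 for F13a1 (adjusted p = 0.00106), 1.14 for Mrc1 (adjusted p = 0.016), 1.05 for Pf4 (adjusted p = 0.0462), 1.79 for Cbr2 (adjusted p = 0.00148), 2.18 for Clec10a (adjusted p = 0.0432) and 1.94 for Ccl8 (adjusted p = 0.00651). It was 1.53 for Mal (adjusted p = 0.00011), 1.70 for Serpinb9b (adjusted p = 0.0139), 1.38 for Ifi27l2b (adjusted p = 0.0408), 1.22 for Ptx3 (adjusted p = 0.0405), 0.62 for Lss (adjusted p = 0.038), −0.44 for Sesn3 (adjusted p = 0.0462) and −1.54 for Eln (adjusted p = 0.0297). Without type 1 replicate 4 the adjusted p passed 0.05 for Cd163 (0.0773), Ptx3 (0.073), Pf4 (0.0815), Clec10a (0.19), Sesn3 (0.0773) and Lss (0.0685).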

How the results depend on the processing

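Of 61 named genes called, 36 kept the call without any single library, 8 lost it without 1 to 5 libraries and 17 without 6 or more. The number of calls was 1026 in DESeq2 (547 higher, 479 lower), 941 with diabetic libraries alone (521 and 420), 2927 in limma-voom with quality weights (1488 and 1439), 289 with no filter on low counts (148 and 141), 501 with another scaling and 592 with the cardiomyocyte covariate; with that covariate and no type 1 replicate 4, an alternative added after seeing the data, it was 854 (491 and 363). Of the 492 calls, 334 were made again in the same direction with the cardiomyocyte covariate, and 415 when type 1 replicate 4 was left out as well. Summing libraries that share a first number gave 0 calls (0 higher, 0 lower). Leaving out 1 library gave 160 to 978 calls, 87 to 507 higher and 73 to 471 lower; between days, 47 without type 1 replicate 4. The cause of these shifts was not tested. The replicate numbers did not pair the libraries: same-numbered deviations correlated at −0.337 to 0.371, and only replicate 7 correlated best with its own number; the replicate block gave 373 calls. Among the 77 named genes, values changed sign for 3, none of them called. Of all 492 genes called, 491 kept their sign without type 1 replicate 4, and 491 also with the covariate added. Angptl4 was at 0.01 with summed libraries. Adipoq was at −0.06 with the covariate and −0.01 in limma-voom. Ighm was at −0.34 in DESeq2, −1.40 with the covariate, −1.0 with the covariate and no type 1 replicate 4, −0.92 in limma-voom, −0.01 with the replicate block, and −0.87 (without type 1 replicate 4) to 3.07 (without type 2 replicate 4) when 1 library was left out. Genes under about 1 CPM, such as Eomes, rest on few counts.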

Other observations

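The genes here were picked after their values were seen, so their counts are a description. Proteasome subunits, the parts of the machine that degrades proteins, were higher in type 1 infarcts in 7 of 35 cases and lower in 0. Over all genes tested 1.51 percent were higher. All 35 differences were positive, against 9224 of 18165 over all genes, and the median of the 35 was 0.19. Psmd14 was at 0.37 (adjusted p = 0.00601) and Psmd13 at 0.29 (adjusted p = 0.0135) by the quasi-likelihood test of edgeR, with Benjamini-Hochberg adjusted p. The 5 interferon-inducible immunoproteasome subunits had negative differences with a median of −0.22, and without type 1 replicate 4 edgeR called 2 of them lower.

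Of 9 genes of squamous epithelium, Crct1 among them, 6 were called higher in type 1 infarcts and 0 lower, and 8 differences were positive. Of 4 Sprr genes 3 were called higher, and 3 differences were positive. Over all genes tested 1.51 percent were called higher. Sprr1a, which injured heart muscle also makes, had 174, 360 and 455 CPM in type 1, against 147, 202 and 221 CPM in type 2 infarcts (log2 difference 0.87, adjusted p = 0.00382, edgeR). Sprr2g (3.68, adjusted p = 0.0124) and Sprr2f (2.98, adjusted p = 0.00679) were higher too, with reads that near-identical family members may share, as were Asprv1 (2.5), Trp63 (1.34) and Cldn4 (1.80). Star, which carries cholesterol into mitochondria, had 45.2, 92.0 and 102 CPM in type 1, against 37.3, 43.5 and 58.4 CPM in type 2 infarcts (0.92, adjusted p = 0.000497, edgeR).

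Receptors that bring lymphocytes into inflamed tissue differed in direction. Cxcr6 had 19.7, 33.4 and 39.7 CPM in type 1, against 12.3, 14.8 and 16.8 CPM in type 2 infarcts (1.06, adjusted p = 0.000497, edgeR), while Cxcr3 had 1.31, 1.95 and 2.99 CPM in type 1, against 3.57, 3.97 and 5.2 CPM in type 2 infarcts (−0.97, adjusted p = 0.00752, edgeR). Neither gene's diabetic groups overlapped.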
